A study of Homo sapiens with 6 samples.

Results

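The genes described here encode the SR proteins, the hnRNP proteins and their closest partners, which together steer the choice of splice sites in pre-mRNA. They were taken by symbol from a table of 25662 genes: the SRSF genes, the HNRNP genes, TRA2A and TRA2B, the kinases CLK1 to CLK4 and SRPK1 to SRPK3, and PTBP1 to PTBP3. Of 120 rows with such names, 71 pseudogenes were left out and 49 genes remained. These are 12 SR proteins, 2 TRA2 proteins, 7 SR protein kinases, 25 hnRNP rows and 3 polypyrimidine tract binding (PTB) proteins.

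All RNA came from A375, a long-established human melanoma cell line with an activated BRAF kinase. The treated cells received BMH-21 at 1 µM for 24 hours, and the control cells received the solvent DMSO. The compound BMH-21 slots between DNA bases and blocks RNA polymerase I, which transcribes the ribosomal RNA genes. Each group has 3 libraries, described as biological replicates, and all 6 libraries come from the same line grown with serum. The sample titles call the control time 0, so the length of the DMSO exposure is unclear.

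SR proteins carry an RNA recognition motif and a tail rich in arginine and serine, and they usually bind exons and favour their inclusion. CLK and SRPK kinases phosphorylate that tail, which sets where SR proteins reside and when they act. hnRNP proteins coat nascent RNA, and many of them oppose SR proteins at exons. Many genes of both families limit their own output by splicing in an exon with an early stop codon, which sends the transcript to nonsense-mediated decay (NMD). The values below are length-scaled transcript shares (TPM) per gene and sum all isoforms, so productive and decay-bound transcripts of a gene cannot be told apart.

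The promoter windows of the SR and hnRNP genes with the largest changes follow, where the RefSeq promoter table (build GRCh38.p14) has an entry. They were picked after the changes were known. Each runs 5′ to 3′ over 300 bases, from 250 bases before the annotated start to 50 after it, with every CpG dinucleotide in capitals. SRSF8 and SRSF5 were higher after BMH-21, and HNRNPA3 and HNRNPL were lower.
SRSF8 (chr11:95066627-95066926, plus strand): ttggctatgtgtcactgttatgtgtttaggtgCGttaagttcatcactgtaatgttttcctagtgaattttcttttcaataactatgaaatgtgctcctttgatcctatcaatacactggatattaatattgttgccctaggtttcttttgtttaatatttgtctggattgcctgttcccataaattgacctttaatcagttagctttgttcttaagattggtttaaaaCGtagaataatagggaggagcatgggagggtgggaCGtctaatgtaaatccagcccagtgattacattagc
SRSF5 (chr14:69766892-69767191, plus strand): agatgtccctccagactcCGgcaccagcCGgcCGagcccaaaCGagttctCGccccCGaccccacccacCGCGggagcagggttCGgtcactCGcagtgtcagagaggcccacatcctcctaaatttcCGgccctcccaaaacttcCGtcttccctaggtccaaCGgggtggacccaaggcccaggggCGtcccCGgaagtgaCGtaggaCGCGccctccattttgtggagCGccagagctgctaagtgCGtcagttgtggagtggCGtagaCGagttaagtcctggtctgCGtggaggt
HNRNPA3 (chr2:177212544-177212843, plus strand): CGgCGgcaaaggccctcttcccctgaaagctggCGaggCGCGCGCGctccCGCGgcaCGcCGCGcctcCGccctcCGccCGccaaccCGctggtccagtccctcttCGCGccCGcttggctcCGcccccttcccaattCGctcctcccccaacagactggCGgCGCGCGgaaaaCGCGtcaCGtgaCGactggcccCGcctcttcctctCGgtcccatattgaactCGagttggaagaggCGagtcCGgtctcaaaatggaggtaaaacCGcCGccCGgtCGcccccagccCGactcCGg
HNRNPL (chr19:38849937-38850236, minus strand): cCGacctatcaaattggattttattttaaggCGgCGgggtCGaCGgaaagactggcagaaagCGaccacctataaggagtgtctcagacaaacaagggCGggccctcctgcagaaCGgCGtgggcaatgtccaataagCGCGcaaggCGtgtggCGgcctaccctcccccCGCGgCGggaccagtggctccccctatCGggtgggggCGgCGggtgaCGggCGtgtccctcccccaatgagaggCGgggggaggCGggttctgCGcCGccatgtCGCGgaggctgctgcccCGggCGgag

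SRSF8 is a retrogene, an intronless copy of SRSF2 made from its mRNA, and its window holds 3 CpG dinucleotides. SRSF5 has 23, HNRNPA3 has 40 and the HNRNPL window shown has 29. The other genes called higher have 41 (CLK3), 42 (PTBP3) and 33 (HNRNPLL) in their richest window. The other genes called lower that have an entry run from 15 (HNRNPC) to 57 (PTBP1). The part of CpG content in the changes was not tested. Of the 38 tested splicing regulator genes with an entry, the median was 32.5 CpG in the richest window of a gene, against 28 over 9779 tested genes. SRSF8 was the 1 gene of the 38 with at most 3 CpG in its richest window, a level found in 2.24% of those 9779 genes. The E-box CACGTG, which reads the same on both strands and does not overlap the second motif searched, was in 10 of 58 windows (17.2%), against 9.53% of 14180 windows of tested genes. HNRNPA3 holds it, where it appears as caCGtg. The 10 windows belong to 9 genes. Besides HNRNPA3 and HNRNPD, which fell, these are CLK2, CLK4, HNRNPDL, HNRNPH2, HNRNPH3, HNRNPM and HNRNPUL1, none of them called. The part of the E-box in the changes was not tested. The cyclic AMP response element TGACGTCA, also the same on both strands, was in 0 of the 58 windows, against 2.89% of the windows of tested genes. Of the genes described here, HNRNPA1, SRSF2, TRA2A, HNRNPA1L3 and HNRNPCL3 have no entry in this table.

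The libraries differed in make-up in ways that touch these genes. TPM keeps no read totals, so no depth or counting error can be given. Control replicate 2 held 33.4% of its TPM in cytosolic ribosomal protein genes and 7.61% in mitochondrial transcripts. The other controls held 26.0% and 27.8% in ribosomal protein genes and 13.7% and 10.9% in mitochondrial transcripts, and the BMH-21 libraries held 23.7% to 26.4% and 12.4% to 14.6%. Of the lineage genes, SOX10, S100B and VIM were abundant (75.0 TPM or more in every library), MITF was between 0.979 and 1.82 TPM, and the pigment gene MLANA was at 0. VIM was at 1230 to 1400 TPM in BMH-21 libraries and 1990 to 2330 TPM in control libraries. S100B was at 110 to 112 TPM in BMH-21 libraries and 75.0 to 80.4 TPM in control libraries. Markers of fibroblasts, blood and endothelium summed to at most 2.70 TPM per list in any library. KRT10, the highest of 3 keratinocyte markers in the table, was at 40.3 to 43.8 TPM in BMH-21 libraries and 23.1 to 28.9 TPM in control libraries, and KRT5 was at or below 0.290 TPM. The part of keratin-expressing cells in the results below was not tested. In bulk RNA, fewer cells with a transcript and less of it per cell cannot be told apart.

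After BMH-21, SRSF8, SRSF5, CLK3, PTBP3 and HNRNPLL rose, while HNRNPA1, HNRNPA3, SRSF2, HNRNPL, HNRNPD, SRSF7, HNRNPF, HNRNPA0, PTBP1 and HNRNPC fell. The genes were tested with limma on log2(TPM + 1) over all 12481 genes with a mean of at least 1 TPM, and a gene was called at a Benjamini-Hochberg adjusted p under 0.05. Of the 49 splicing regulator genes 42 were tested, each with a mean of at least 1 TPM in both groups. Of these, 5 were called higher (11.9%) and 10 lower (23.8%), where 36.2% of all tested genes were called, 23.3% higher and 12.9% lower. In 21 of the 42 (50.0%) the ranges of the groups were separate, 6 with BMH-21 above and 15 with BMH-21 below. Among all tested genes this share was 52.3%, 35.0% above and 17.3% below. The share of non-overlapping genes was thus close to the background, and the balance of directions was the other way round.

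The median log2 change was -0.13 over the 42 genes and 0.19 over all tested genes. TPM is a share of a library's total, and the balance of calls depended on scaling. With median-of-ratios scaling the median was -0.32 over the 42 genes and 0.02 over all tested genes, 4 of the 42 were called higher and 22 lower, and the background was 15.1% higher and 19.0% lower. The 12 genes called lower in addition were SRSF3, SRSF4, SRSF9, HNRNPA1L3, HNRNPA2B1, HNRNPAB, HNRNPDL, HNRNPH3, HNRNPK, HNRNPU, HNRNPUL1 and HNRNPUL2. With quantile normalization 4 were called higher and 10 lower, against 18.6% and 17.9% of all tested genes. Higher calls made up 64.4% of all calls without rescaling, 44.4% under median-of-ratios scaling and 51.0% under quantile normalization. Log2 changes below are of TPM as deposited and are best read against 0.19. The calls of SRSF8, SRSF5, CLK3, HNRNPA1, HNRNPA3, SRSF2, HNRNPL, SRSF7, HNRNPF and HNRNPA0 held in each of the 14 alternatives tried.

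**Figure D1:**
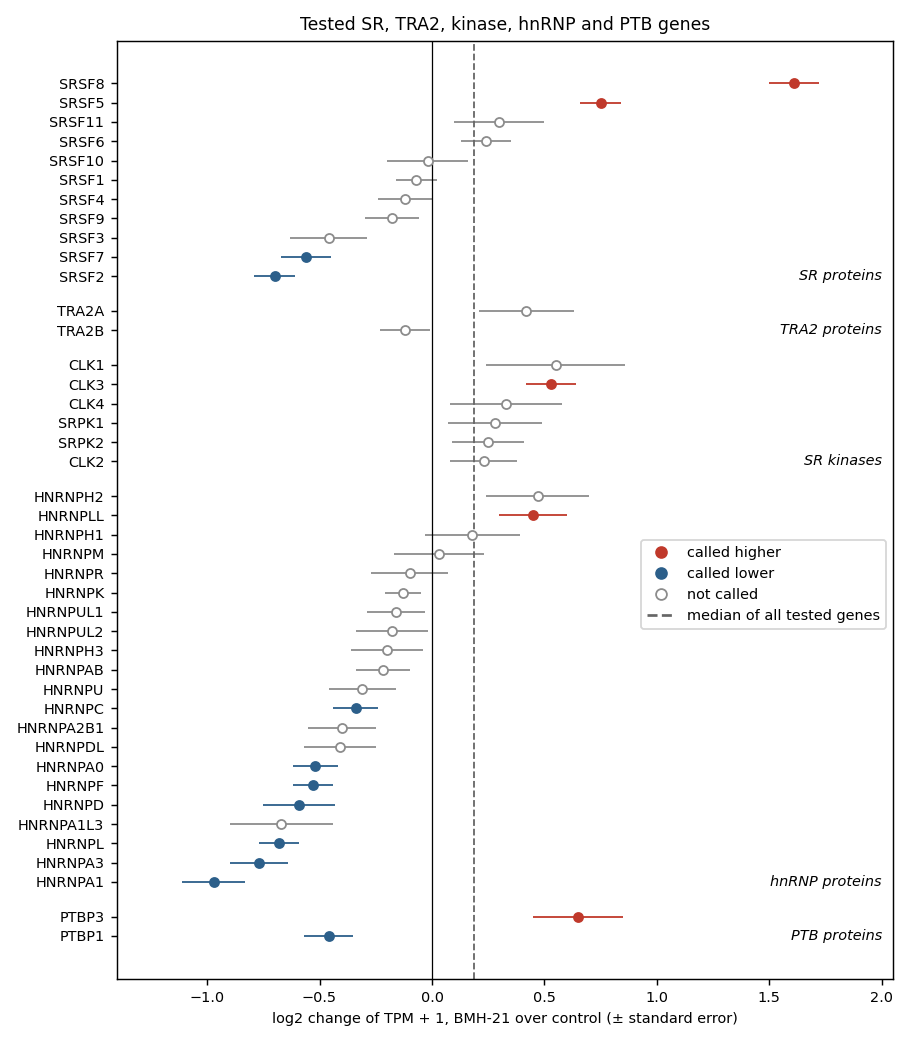
Log2 change of TPM + 1 for the 42 tested genes, BMH-21 over control, with the standard error, ordered within each role. Filled red points were called higher (5 genes), filled blue points lower (10 genes) and open points were not called. The solid line is at 0 and the dashed line at 0.19, the median of all tested genes.

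Of 11 tested SR proteins 2 rose, 2 fell and 7 were not called, with a median log2 change of -0.07. These shares, 18.2% each way, are near the 23.3% of all tested genes called higher and 12.9% called lower. SRSF8 (chr11:95066877-95071225) had 89.9, 89.9 and 92.4 TPM in BMH-21 libraries, against 33.0, 26.1 and 28.4 TPM in control libraries. The groups lay far apart, and the 3 BMH-21 libraries were nearly equal. Its log2 change of 1.61 ± 0.11 was the highest of the 42 genes (standard error, adjusted p = 2.6e-05), a ratio of mean TPM of 3.11. SRSF2 (chr17:76734115-76737411), also known as SC35, a marker protein of nuclear speckles, moved the other way. It was at 105, 102 and 103 TPM with BMH-21, against 185, 153 and 169.6 TPM in controls, again without overlap (log2 change -0.70 ± 0.09, adjusted p = 0.000839).

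The copy and its parent gene were closer in level with BMH-21. TPM of SRSF8 divided by that of SRSF2 in the same library was 0.854, 0.881 and 0.900 with BMH-21 and 0.178, 0.171 and 0.167 in controls, a 5.11-fold difference. Such a ratio does not change with the scaling of a library. Sequence shared with any other gene bears on both levels, since Salmon divides reads among matching transcripts. In GENCODE 29, 8.32% of the distinct 31-base words of SRSF8 transcripts also occur in transcripts of other genes, on either strand. The gene sharing most of them was AP002383.3, with 110 of 4025 words, so SRSF2 shares no more than that. For SRSF2 the share was 32.6%, most of it with MFSD11, which overlaps 36.7% of its exon bases on the opposite strand. Whether counting used strand is not given in the sources used here. MFSD11 was at 14.4 ± 1.79 TPM with BMH-21 and 13.7 ± 2.20 TPM in controls (SD, n = 3 each) and was not called (adjusted p = 0.731). SRSF8BP, a further copy outside the 49 genes, was at 0.871, 0.572 and 0.917 TPM with BMH-21 and listed at 0 in the 3 controls.

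SRSF5 (chr14:69767142-69772005) and SRSF7 (chr2:38743599-38751494) also moved in opposite directions. SRSF5, an SR protein known as SRp40, had 106, 108 and 108 TPM in BMH-21 libraries, against 68.2, 58.0 and 65.0 TPM in controls (log2 change 0.75 ± 0.09, adjusted p = 0.000551). SRSF7, which also links splicing to mRNA export, had 60.5, 65.4 and 58.0 TPM in BMH-21 libraries, against 78.2, 100.4 and 94.9 TPM in controls (log2 change -0.56 ± 0.11, adjusted p = 0.00678). SRSF5 stood above SRSF7 in each BMH-21 library and below it in each control library.

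SRSF3, the smallest classical SR protein and the SR gene with the highest mean level, was at 208, 141 and 224 TPM with BMH-21, against 235, 287 and 258 TPM in controls. All 3 treated libraries lay below all controls, but BMH-21 replicate 2 was far below its partners, and the gene was not called (log2 change -0.46 ± 0.17, adjusted p = 0.0647). Without BMH-21 replicate 2 the log2 change was -0.26 (adjusted p = 0.12), and without BMH-21 replicate 3 it was -0.59 (adjusted p = 0.0453). SRSF1, the founding member known as SF2/ASF, was at 83.7 ± 5.43 TPM with BMH-21 and 87.9 ± 4.96 TPM in controls (adjusted p = 0.563). Of its 31-base words 56.9% are shared with other annotated genes, chiefly the overlapping transcript AC015813.2 on the same strand, and its level is uncertain for that reason.

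The other SR genes were not called. SRSF6 was at 42.3, 43.3 and 40.9 TPM with BMH-21 and 39.8, 30.9 and 36.6 TPM in controls, without overlap and without a call (adjusted p = 0.134). SRSF9 averaged 176 ± 12.6 TPM with BMH-21 and 199.8 ± 28.96 TPM in controls, and SRSF4 averaged 50.9 ± 2.58 TPM with BMH-21 and 55.7 ± 7.91 TPM in controls. SRSF9 shares 46.6% of its 31-base words with other genes, most of them with GATC on the opposite strand, so its level is uncertain too. SRSF10, which acts as a repressor once dephosphorylated, averaged 21.0 ± 5.08 TPM with BMH-21 and 21.0 ± 1.73 TPM in controls. SRSF11 was called higher without BMH-21 replicate 2 (log2 change 0.52, adjusted p = 0.0447) and not with all libraries (0.30 ± 0.20, adjusted p = 0.274). SRSF12 reached at most 0.319 TPM in any library and was not tested. Summed over the 12 genes, SR protein transcripts made up 956, 900.0 and 981 TPM with BMH-21 and 1058, 989 and 1037 TPM in controls.

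TRA2A and TRA2B, SR-like proteins that bind purine-rich exonic enhancers, gave no call in the limma test, and neither had an unadjusted p under 0.05. TRA2B was at 114, 97.8 and 124 TPM with BMH-21, against 128, 120.4 and 115 TPM in controls (log2 change -0.12 ± 0.11, adjusted p = 0.411). TRA2A was at 15.6, 12.9 and 16.0 TPM with BMH-21, against 14.7, 7.97 and 10.7 TPM in controls (log2 change 0.42 ± 0.21, adjusted p = 0.151), and was called higher without control replicate 1 (adjusted p = 0.0371). Both pairs of ranges overlapped, while TRA2A divided by TRA2B was 0.129 to 0.137 with BMH-21 and 0.0662 to 0.115 in controls.

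**Figure D2:**
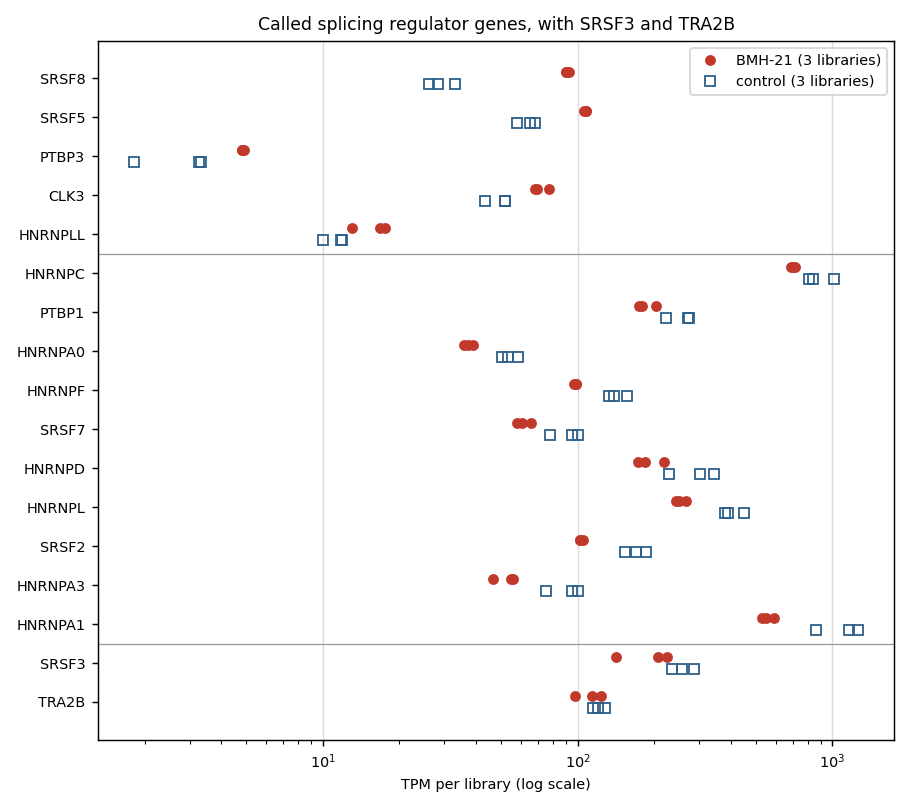
TPM per library on a log scale for the 15 called genes and for SRSF3 and TRA2B, each gene with its 3 BMH-21 libraries (filled red circles, upper) and 3 control libraries (open blue squares, lower). Above the first grey line are the 5 genes called higher, and between the lines the 10 called lower. The groups of each called gene do not overlap, and those of TRA2B do.

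Among the kinases of SR proteins, CLK3 rose and the others were not called. CLK3 (chr15:74608372-74630201), a dual-specificity kinase of nuclear speckles, had 69.2, 77.3 and 68.0 TPM in BMH-21 libraries, against 52.1, 43.3 and 52.1 TPM in controls (log2 change 0.53 ± 0.11, adjusted p = 0.00662). With median-of-ratios scaling the log2 change was 0.34 (adjusted p = 0.029). CLK2 was at 32.4 ± 2.89 TPM with BMH-21 and 27.8 ± 5.02 TPM in controls (adjusted p = 0.264). No kinase was called lower by limma, and none was lower at an unadjusted p under 0.05. Over all tested genes 23.3% were called higher, 12.9% were called lower and 15.6% were lower at that unadjusted p. With 6 kinases tested, these counts cannot show a departure from those shares. All 6 tested kinases lay above 0.19, from 0.23 for CLK2 to 0.55 for CLK1, with a median of 0.30. CLK2, SRPK2 and SRPK1 exceeded 0.19 by only 0.04, 0.07 and 0.09, with standard errors of 0.15, 0.16 and 0.21. Nor did this hold in every alternative. Without control replicate 2 CLK2 was at 0.07, against a median of 0.12 over all tested genes. Without control replicate 1 SRPK1 was at 0.15, against 0.22.

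CLK1 and CLK4 are known to keep introns in part of their nuclear transcripts, and both varied between treated libraries. CLK1 was at 4.93, 2.54 and 6.94 TPM with BMH-21, against 3.90, 2.27 and 2.29 TPM in controls (log2 change 0.55 ± 0.31, adjusted p = 0.189). CLK4 was at 1.72, 0.886 and 2.56 TPM with BMH-21, against 0.896, 1.58 and 0.877 TPM in controls (adjusted p = 0.333). In both genes BMH-21 replicate 2 was the lowest treated library. Without it CLK1 was called higher (log2 change 0.87, adjusted p = 0.0292), and without both number 2 libraries CLK4 was too (0.72, adjusted p = 0.0222). SRPK1, the main cytoplasmic SR kinase, was at 18.5, 12.3 and 15.9 TPM with BMH-21, against 10.4, 16.6 and 11.4 TPM in controls, with overlap (adjusted p = 0.322, and 0.007 as higher without both number 2 libraries). SRPK2 averaged 9.85 ± 1.205 TPM with BMH-21 and 8.14 ± 1.36 TPM in controls, and SRPK3, known from muscle, reached at most 0.437 TPM and was not tested.

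Of 21 tested hnRNP genes 7 fell (33.3%), 1 rose (4.76%) and 13 were not called, with a median log2 change of -0.31. Over all tested genes 12.9% were called lower and 23.3% higher. All BMH-21 libraries lay below all controls in 11 of the 21, where this held for 17.3% of all tested genes. Their summed level was 3261, 3295 and 3234 TPM with BMH-21, against 4719, 4051 and 4839 TPM in controls, a ratio of 0.719. The treated libraries were close together and the control libraries spread more widely, with control replicate 2 the lowest. HNRNPA1, the most abundant hnRNP gene, formed 16.8%, 17.9% and 16.3% of the hnRNP sum with BMH-21 and 24.7%, 21.4% and 26.1% in controls. Without it the sum was 2712, 2706 and 2707 TPM with BMH-21 and 3556, 3184 and 3574 TPM in controls.

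HNRNPA1 (chr12:54280726-54287087), a repressor of exon inclusion that shuttles between nucleus and cytoplasm, had 549, 588 and 528 TPM in BMH-21 libraries, against 1163, 867 and 1264 TPM in controls. Control replicate 2 was the lowest control and still lay above every treated library. The log2 change was -0.97 ± 0.14, the lowest of the 42 genes (adjusted p = 0.00143), and -1.13 without control replicate 2. HNRNPA1 shares 25.2% of its 31-base words with other genes, most of them with HNRNPA1L3, which adds uncertainty to its level. HNRNPA1L3, an intronless copy, was at 2.61, 3.26 and 2.59 TPM with BMH-21, against 5.72, 3.29 and 6.76 TPM in controls. It shares 58.4% of its 31-base words with other genes, most of them with HNRNPA1, so its level is uncertain. It was not called (adjusted p = 0.0538) and was called lower without control replicate 2 (adjusted p = 0.00399). Words were also shared with other genes in HNRNPK (24.3%), HNRNPA3 (21.2%), HNRNPH2 (20.1%), HNRNPU (16.0%), HNRNPL (14.0%) and HNRNPAB (11.6%). Their levels carry the same uncertainty.

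Relatives of HNRNPA1 lay on the same side. HNRNPA3 had 54.7, 46.6 and 55.7 TPM in BMH-21 libraries, against 94.7, 75.1 and 100.3 TPM in controls (log2 change -0.77 ± 0.13, adjusted p = 0.0031). HNRNPA0, an intronless member that binds AU-rich RNA, had 37.2, 38.9 and 35.9 TPM in BMH-21 libraries, against 58.1, 50.4 and 53.3 TPM in controls (log2 change -0.52 ± 0.10, adjusted p = 0.00441). HNRNPD, the RNA decay factor AUF1, had 185, 218 and 173 TPM in BMH-21 libraries, against 343, 229 and 302 TPM in controls (log2 change -0.59 ± 0.16, adjusted p = 0.0209). Its nearest libraries of the 2 groups were the number 2 libraries. The HNRNPD call was lost without BMH-21 replicate 1 or 3 and without control replicate 1 or 3 (adjusted p from 0.0573 to 0.0738).

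HNRNPA2B1, which reads RNA motifs in splicing and RNA transport, was at 200.3, 174 and 199.7 TPM with BMH-21, against 253, 203 and 311 TPM in controls. The groups did not overlap, yet the gene was not called (log2 change -0.40 ± 0.15, adjusted p = 0.0699). Without control replicate 2 it was called lower (-0.55, adjusted p = 0.0103). HNRNPDL, a relative of HNRNPD, averaged 63.0 ± 13.2 TPM with BMH-21 and 83.2 ± 6.77 TPM in controls (adjusted p = 0.0723, and 0.0498 as lower without BMH-21 replicate 3). HNRNPAB averaged 184 ± 17.6 TPM with BMH-21 and 216 ± 27.7 TPM in controls (adjusted p = 0.167). In this subfamily of 8 genes, grouped after their values were seen, 4 were called lower, none higher, and 7 had all treated libraries below all controls. All 8 log2 changes were below 0, where the median over all tested genes was 0.19. HNRNPA1L3 is 1 of the 8, and it shares 58.4% of its 31-base words with other genes, mostly HNRNPA1. It is therefore not a separate count. Of the other 13 tested hnRNP genes 3 were called lower and 1 higher, 4 had all treated libraries below all controls, and 9 had a log2 change below 0. Over all tested genes 12.9% were called lower and 17.3% had separate groups with BMH-21 below.

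Further hnRNP genes that fell bind different motifs. HNRNPL (chr19:38836370-38852347), which binds CA repeats, had 267, 243 and 249.8 TPM in BMH-21 libraries, against 389, 378 and 452 TPM in controls (log2 change -0.68 ± 0.09, adjusted p = 0.00114). HNRNPF, which binds G runs, had 98.8, 97.2 and 98.7 TPM in BMH-21 libraries, against 156, 139 and 133 TPM in controls (log2 change -0.53 ± 0.09, adjusted p = 0.00268). Both genes had tight treated groups well below the controls. HNRNPC, which binds U tracts and packages nascent RNA, had 699.9, 688 and 716 TPM in BMH-21 libraries, against 843, 1019 and 811 TPM in controls (log2 change -0.34 ± 0.10, adjusted p = 0.0335). Here control replicate 2 was the highest control, and leaving out any 1 treated library ended the call (adjusted p from 0.0824 to 0.11).

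HNRNPLL, the paralog of HNRNPL known from lymphocyte activation, was the hnRNP gene called higher. It had 16.7, 13.1 and 17.5 TPM in BMH-21 libraries, against 10.0, 11.9 and 11.8 TPM in controls (log2 change 0.45 ± 0.15, adjusted p = 0.0459). The call was lost without BMH-21 replicate 1 or 3, without control replicate 1 or 3 (adjusted p from 0.082 to 0.167) and with median-of-ratios scaling (0.27, adjusted p = 0.217). HNRNPH2 was at 13.7, 8.20 and 13.8 TPM with BMH-21, against 6.88, 7.43 and 10.4 TPM in controls (adjusted p = 0.147), and was called higher without BMH-21 replicate 2 (adjusted p = 0.0305).

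Several abundant hnRNP genes changed call with control replicate 2. HNRNPU, the scaffold attachment factor, was at 100.4, 103 and 101 TPM with BMH-21, against 144, 97.2 and 142 TPM in controls (log2 change -0.31 ± 0.15, adjusted p = 0.142). Without control replicate 2 it was called lower (-0.49, adjusted p = 0.00183). The same held for HNRNPH3 (adjusted p = 0.0397), HNRNPUL1 (0.0346) and HNRNPUL2 (0.0199), whose adjusted p with all libraries ran from 0.349 to 0.391. HNRNPUL2 shares 43.6% of its 31-base words with other genes, most of them with its readthrough transcript unit HNRNPUL2-BSCL2, which was at 25.03 ± 4.34 TPM with BMH-21 and 22.8 ± 5.10 TPM in controls.

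HNRNPK, which binds C-rich RNA, was at 285, 289 and 283 TPM with BMH-21, against 312, 299 and 329 TPM in controls, and was not called (log2 change -0.13 ± 0.08, adjusted p = 0.207). HNRNPM averaged 175 ± 16.1 TPM with BMH-21 and 176 ± 47.8 TPM in controls (adjusted p = 0.927, and 0.0136 as lower without both number 2 libraries). HNRNPR averaged 32.2 ± 5.25 TPM with BMH-21 and 34.7 ± 6.19 TPM in controls. HNRNPH1, a binder of G runs like HNRNPF, averaged 86.2 ± 6.87 TPM with BMH-21 and 78.5 ± 23.2 TPM in controls (adjusted p = 0.526).

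The 4 remaining hnRNP rows are HNRNPC-like genes of chromosome 1, which reached at most 2.06 TPM in any library and were not tested. HNRNPCL2 was at 1.59, 1.23 and 2.06 TPM with BMH-21 and listed at 0 in the 3 controls. HNRNPCL1 was at 0.304, 0.754 and 0.374 TPM with BMH-21, against 0.0899, 0.0647 and 0 TPM in controls. HNRNPCL3 was at 0.473, 0.452 and 0.845 TPM with BMH-21, against 0, 0.0482 and 0 TPM in controls. HNRNPCL1, HNRNPCL2 and HNRNPCL3 were thus above every control in every treated library, and HNRNPCL4 overlapped. In a limma fit with no filter on low values those 3 were called higher (adjusted p = 0.0345, 0.00113 and 0.0078 in the order of their numbers). That fit called 2672 of 22944 genes higher. The 3 genes were at most 0.0899 TPM in any control, so these calls rest on values near the floor. Between 67.6% and 96.4% of the 31-base words of these 4 genes occur in other genes, so the levels cannot be assigned firmly to single copies.

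The PTB proteins also changed in opposite directions. PTBP1 (chr19:797452-812312), which binds pyrimidine tracts and represses many exons outside neurons, had 179, 204 and 174 TPM in BMH-21 libraries, against 274, 223 and 271 TPM in controls (log2 change -0.46 ± 0.11, adjusted p = 0.0132). Its call was lost without BMH-21 replicate 1 or 3 (adjusted p = 0.0582 and 0.0585). PTBP3 had 4.89, 4.82 and 4.80 TPM in BMH-21 libraries, against 3.26, 1.82 and 3.32 TPM in controls (log2 change 0.65 ± 0.20, adjusted p = 0.0339), a call that ended when any 1 treated library was left out (adjusted p from 0.0632 to 0.102). PTBP2, the neuronal paralog whose exon is repressed by PTBP1 in other cells, was at 0.698, 0.406 and 1.13 TPM with BMH-21 and 0.753, 0.477 and 1.07 TPM in controls and was not tested. PTBP3 remained far below PTBP1 in level in every library.

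**Figure D3:**
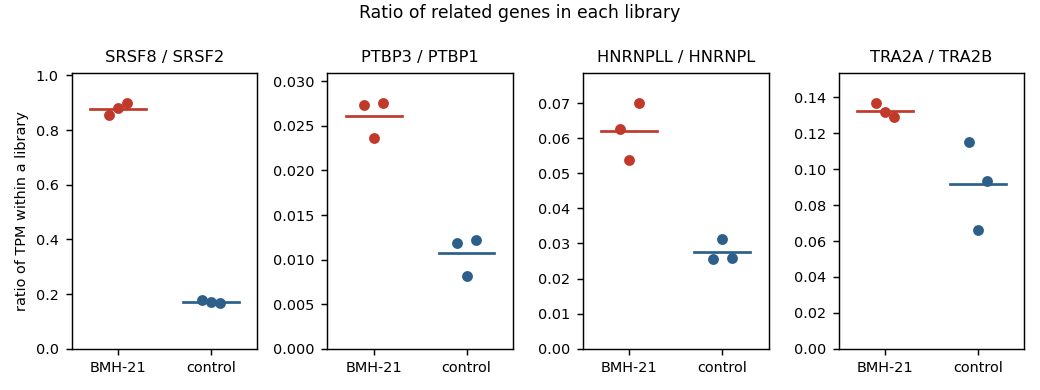
TPM of a gene divided by TPM of its paralog in the same library, for 4 pairs, with BMH-21 libraries on the left and control libraries on the right of each panel, and a bar at the mean of each group. The ratio was 5.11-fold higher with BMH-21 for SRSF8 over SRSF2, 2.43-fold for PTBP3 over PTBP1, 2.24-fold for HNRNPLL over HNRNPL and 1.45-fold for TRA2A over TRA2B, and the groups do not overlap in any panel.

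Pairs of paralogs in which the less abundant gene rose were thus found in 3 families. The PTBP3 call held in 8 of 13 alternatives and the HNRNPLL call in 6 of 14. In other pairs the less abundant gene did not rise. HNRNPDL, below HNRNPD in level, had a log2 change of -0.41, and HNRNPUL2, below HNRNPUL1, had -0.18. PTBP3 divided by PTBP1 was 0.0273, 0.0236 and 0.0276 with BMH-21, against 0.0119, 0.00814 and 0.0122 in controls. HNRNPLL divided by HNRNPL was 0.0626, 0.0537 and 0.0701 with BMH-21, against 0.0257, 0.0314 and 0.0260 in controls. These pairs were picked after their changes were seen, so the ratios describe the libraries and carry no test. HNRNPA1 and HNRNPA2B1 both lay lower, and their ratio was also lower with BMH-21, at 2.74, 3.39 and 2.64 against 4.61, 4.26 and 4.06 in controls.

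The 42 tested genes were also described by features of their transcripts. In GENCODE 29, 76.2% of them have an annotated transcript that ends in NMD, against 43.8% of 10864 tested genes with a protein-coding transcript. All 11 SR genes have such a transcript, as do 13 of 21 hnRNP genes. Of the called genes, 4 of the 5 that rose and 7 of the 10 that fell have an annotated NMD transcript, and 21 of the 27 not called. The median GC content of their transcripts was 43.5% in genes that rose, 44.5% in those that fell and 42.6% in those not called. Over all tested genes it was 50.3%. Here and below, all annotated transcripts were counted for the 42 genes and only protein-coding ones for other genes. The levels are therefore not like for like.

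GC content moved with the spread between libraries. Over the 42 genes, the deviation of BMH-21 replicate 2 from its group mean correlated with GC content at a Spearman rho of 0.65, and those of BMH-21 replicates 1 and 3 at -0.54 and -0.66. Over 10864 tested genes the values were 0.63, -0.32 and -0.61 in the same order. In the controls rho over the 42 genes was 0.29, -0.16 and 0.07 for replicates 1 to 3, and over all genes it was 0.15, -0.27 and 0.24. The points share libraries, and deviations within a group of 3 sum to 0. Of the genes with low GC content, CLK1 (38.3%), CLK4 (37.9%) and SRSF3 (41.7%) were at their lowest treated level in BMH-21 replicate 2. Not all followed, as HNRNPU (39.6%) and HNRNPA0 (41.1%) were at their highest treated level there. Control replicate 2 was the lowest control in 33 of the 42 genes. The part of library make-up in the changes was not tested beyond leaving these libraries out.

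**Figure D4:**
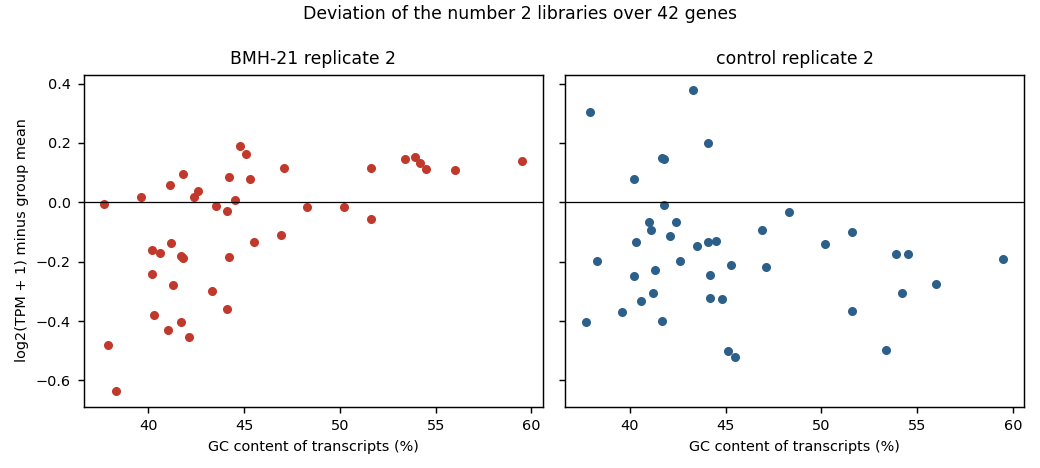
Deviation of log2(TPM + 1) from the group mean against the GC content of annotated transcripts in percent, each point being 1 of the 42 tested genes, for BMH-21 replicate 2 (left) and control replicate 2 (right). In BMH-21 replicate 2 the lowest deviations belong to genes of low GC content and most genes of high GC content lie above 0 (rho 0.65), while in control replicate 2 most genes lie below 0 at any GC content (rho -0.16).

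Leaving out the libraries that stood apart moved the counts. Without control replicate 2, 5 of the 42 genes were called higher and 16 lower with a median log2 change of -0.22, where 22.4% of all tested genes were called higher and 15.8% lower with a median of 0.12. With both number 2 libraries left out, 10 were called higher and 20 lower, where the background was 28.8% and 17.6%.

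**Figure D5:**
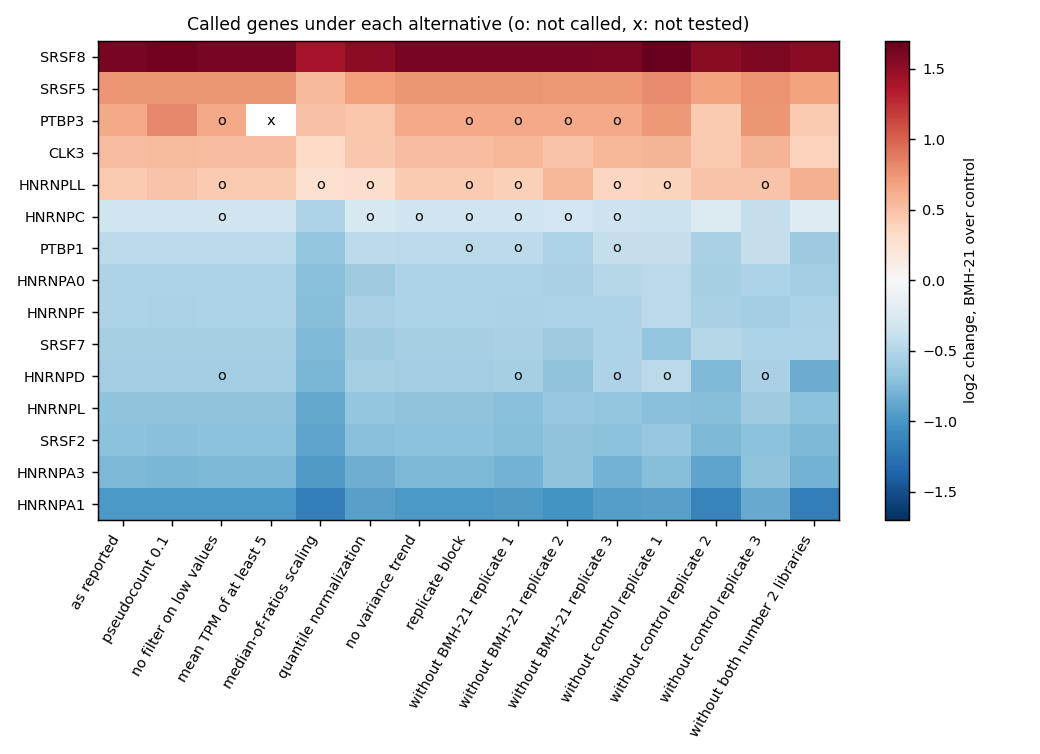
Log2 change of the 15 called genes (rows) as reported and under each of 14 alternatives (columns), coloured from blue (lower with BMH-21) to red (higher). A circle marks a setting in which the gene was not called and a cross one in which it was not tested. The rows of 10 genes hold no mark, and those of PTBP3, HNRNPLL, HNRNPC, PTBP1 and HNRNPD do.

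Other splicing genes were read from 4 lists outside these families. Over all tested genes 23.3% were called higher and 12.9% lower, against which the counts of each list are to be read. Of 26 SR-related proteins and kinases, 4 were called higher (ACIN1, PNISR, SCAF11 and RSRP1) and 0 lower, with a median log2 change of 0.35. With median-of-ratios scaling 2 were called lower, and without control replicate 2 the count was 3. In the limma test 10 of the 26 were higher and 0 lower at an unadjusted p under 0.05, where 31.4% of all tested genes were higher and 15.6% lower at that p. RSRP1, a protein with an arginine and serine-rich stretch, rose most, at 22.7, 24.3 and 21.2 TPM with BMH-21, against 13.2, 8.48 and 8.80 TPM in controls (log2 change 1.11 ± 0.17, adjusted p = 0.00209). Of 24 tested other splicing regulators, 4 rose and 3 fell. KHDRBS3, a STAR-family RNA-binding protein, averaged 10.8 ± 1.88 TPM with BMH-21 and 4.48 ± 1.88 TPM in controls (adjusted p = 0.0121). RBMX, also called hnRNP G, averaged 113 ± 11.9 TPM with BMH-21 and 189.9 ± 18.0 TPM in controls (log2 change -0.75 ± 0.11, adjusted p = 0.00153).

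Of 20 tested partners and relatives of hnRNP proteins, 3 rose and 6 fell, among them ILF2, RALY, KHSRP and NONO, with a median log2 change of -0.09. When a library was left out, 1 to 2 were called higher and 3 to 9 lower. ILF2, a subunit of a double-stranded RNA-binding complex, was at 206, 207 and 201 TPM with BMH-21, against 327, 344 and 308 TPM in controls (log2 change -0.67 ± 0.08, adjusted p = 0.000456). FUBP3 rose most (log2 change 0.66 ± 0.19, adjusted p = 0.0314), a call lost without BMH-21 replicate 1 or 3 or control replicate 3 (adjusted p from 0.0532 to 0.0887). Of 16 tested NMD and exon junction factors, 2 rose and 2 fell, with a median of 0.18. The exon junction subunit MAGOHB fell to 32.1 ± 5.29 TPM with BMH-21, against 51.9 ± 6.61 TPM in controls (adjusted p = 0.00943).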

How the data were processed

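The authors deposited TPM values per gene symbol for 6 libraries. Per the submitters' processing notes, STAR and Salmon were used with GRCh38. Their versions, the annotation and the strand setting are unknown here. Per the labels' protocols, ribosomal RNA was depleted and RNA was copied with random hexamers, while the labels also name polyadenylated RNA. The deposited TPM columns summed to between 989360 and 990760.

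Values were analysed as log2(TPM + 1), which understates changes of genes with low TPM. limma 3.58.1 (R 4.3.3, two-sided moderated tests, variance trend) was fitted over all 12481 genes with a mean of at least 1 TPM, with Benjamini-Hochberg adjustment. The model was checked on simulated data with independent noise per gene, which lacked the differences in library make-up and scaling seen here. Alternatives changed the pseudocount (0.1), filter, scaling, variance trend, pairing and libraries. Described in full are the called genes and the highest gene of each role. From each list outside the families, the called genes with the largest rise and fall are given, except 1 that is not reported here. The genes and lists were chosen with earlier results of these data known. Sequence annotation came from GENCODE 29 and RefSeq.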

Additional observations from a re-analysis of the deposited data

How the results depend on the processing

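Over all tested genes 4519 were called, and 2796 to 4809 when a library was left out. Among the splicing regulator genes 5 were called higher and 10 lower. When a library was left out, the count called higher ran from 3 to 7 and the count called lower from 7 to 16. Titles share replicate numbers, but same-numbered libraries did not deviate together (correlations of -0.0449, -0.34 and -0.0779 for numbers 1 to 3). Between libraries of unlike number the correlations ran from -0.306 to 0.334. Deviations within a group of 3 sum to 0, so such correlations cannot decide whether the numbers pair the samples. With a replicate block 3223 genes were called, 3 regulator genes higher and 8 lower, 3 hnRNP partners lower and 1 NMD factor each way. Median-of-ratios scaling gave 22 regulator genes lower, medians of -0.27 for SR and -0.50 for hnRNP genes, 2 SR-related genes lower and 1 NMD factor higher. Without both number 2 libraries 10 regulator genes were higher and 20 lower, the kinase median was 0.50, SR-related genes gave 8 higher and 3 lower, and other splicing regulators 7 higher and 7 lower. With no filter on low values 1 hnRNP partner and 1 NMD factor were higher. Leaving out a library gave these ranges: SR-related genes 2 to 6 higher and 0 to 3 lower, other regulators 3 to 7 and 1 to 3, hnRNP partners 1 to 2 and 3 to 9, and NMD factors 0 to 4 and 1 to 3.

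The sign of 4 uncalled genes turned. HNRNPH1 had a log2 change of -0.02 with median-of-ratios scaling, -0.02 without both number 2 libraries and -0.08 to 0.35 when a library was left out, against 0.18. HNRNPM had -0.17 with median-of-ratios scaling, -0.30 without both number 2 libraries and -0.22 to 0.15 when a library was left out, against 0.03. HNRNPR ran from -0.22 to 0.04 when a library was left out, against -0.10. SRSF10 ran from -0.17 to 0.17 when a library was left out and was 0.10 without both number 2 libraries, against -0.02. The causes were not tested. Without read totals, little can be said of genes below 1 TPM.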
